A study of Mus musculus with 2 samples.

Results

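The 53 genes described here work in G2 phase and in mitosis, from the kinase that starts mitosis to the motors and scaffolds that separate the daughter cells. They were taken by gene symbol from a list of the kind used to score the G2/M phase in single cells, and the rule itself uses gene symbols and no measured value. All 53 were found among the 31053 genes of both matrices. Each was placed in 1 of 8 roles: CDK1-cyclin B and its regulators (6 genes), the spindle checkpoint and ubiquitin ligases (6), Aurora and NEK kinases with the chromosomal passenger complex (5), kinetochore and centromere (6), spindle microtubules and motors (14), cytokinesis (5), chromosome structure and chromatin (8), and nuclear envelope and nuclear transport (3).

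A cell enters mitosis when CDK1 bound to cyclin B is switched on, and it leaves mitosis when the anaphase-promoting complex, with CDC20 and UBE2C, marks cyclin B and the cohesin guard for destruction. In resting cells the DREAM complex sits on the promoters of many of these genes, at a short element called the cell cycle genes homology region (CHR), and keeps transcription low; in G2 phase the MuvB core of that complex binds B-MYB and FOXM1 instead and transcription is high. In the injured lung, alveolar type 2 (AT2) cells, which make surfactant, divide and can give rise to the flat alveolar type 1 (AT1) cells of gas exchange, by way of a transitional cell rich in keratin 8.

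The series asked how loss of *Pclaf*, which encodes a PCNA-associated factor, changes the lung epithelium during repair. The WT group was lung epithelial cells of *Pclaf* WT mice and the KO group those of *Pclaf* KO mice, all aged 8 to 10 weeks and all given bleomycin, a drug that breaks DNA and injures the alveoli, 1 week before the lungs were taken. The series' own text gives the dose as 1.35 U/kg, and cells negative for CD31 and CD45 and positive for EpCAM were sorted and run on a 3′ droplet platform, with 16000 cells loaded per group. Each genotype had 1 library, how many mice were pooled in it is not given in the sources used here, and no uninjured lung was among the samples analysed here. The sources used here do not say which part of *Pclaf* the KO allele lacks, so its 3′ tags do not check the genotype; in cycling alveolar cells (defined below) *Pclaf* stood at 191 CPM (95% interval 123 to 282) in WT and 140 CPM (121 to 162) in KO.

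The libraries stood apart in ways that bear on every comparison between them. The WT library totalled 98171818 UMIs over 30669 barcodes, the KO library 111267567 over 17172, and 163 barcode sequences occurred in both. The filter of more than 200 and fewer than 5000 genes and under 20% mitochondrial UMIs left 30187 WT and 15637 KO cells, with medians of 2127 and 5957 UMIs per cell. Of the cells with at least 1000 UMIs, 5.50% in WT and 72.2% in KO passed an epithelial marker gate, while 42.6% and 2.40% were immune and 27.3% and 2.25% endothelial, although both libraries carry the label of epithelial cells. *Xist*, which female cells transcribe, stood at 254 and 498 CPM and the Y-linked *Ddx3y* at 74.0 and 24.0 CPM in WT and KO, so that both transcripts were present in both libraries. With 1 library per genotype no test between genotypes was possible, and genotype, library, depth and the makeup of the sort cannot be told apart; the intervals given cover counting error only.

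Values are UMIs per 1000000 UMIs of the class (CPM), from UMIs summed over the cells of a class, with exact Poisson 95% intervals; the assay counts 1 tag at the 3′ end of each transcript, so levels were set beside each other without a correction for length. Cells were gated by lineage from marker genes, and a cell was called cycling when at least 3 of 45 other cell cycle genes, 26 of G1/S and 19 of later phases, had a UMI after the cell was thinned to 1000 UMIs. A cell with none of them was called non-cycling, and cells with 1 or 2 were kept apart. None of the 53 genes, nor *Pclaf*, was among those 45. The gate is not independent of the members, though, since its later genes, such as *Ccna2*, *Spc24*, *Spc25*, *Ncapg* and *Racgap1*, act in the same phases. A rise of the members in cells called cycling was therefore built into the classes, and the ratios describe its size only. Alveolar cells are the AT2, AT1 and transitional cells together, and the surfactant gene *Sftpc*, a defining AT2 transcript, stood in the cycling ones at 84207 CPM (WT) and 122628 CPM (KO).

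The promoters of these genes carry the elements by which DREAM and MuvB are known to act, so the reference sequence of 9 of them is shown before the levels. The window was 250 bases upstream to 50 bases downstream of each RefSeq transcript start on GRCm38.p6, and 47 of the 53 genes matched the table; *Tpx2*, *Dlgap5*, *Aurkb*, *Cdca2*, *Smc4* and *Cdc25c* did not. The CHR was searched as TTTGAA or TTCGAA, and the CCAAT box, at which NF-Y binds, as CCAAT, both on either strand, and matches of the 2 motifs may share a base. A CHR stood in 36 of the 47 promoters (76.6%), against 21.7% of all 27025 genes of the table. A CCAAT box stood in 37 (78.7%), against 41.1%, and both in the same window in 30 (63.8%), against 8.61%. The stretches below are the 150 bases upstream of the start, 5′ to 3′ on the gene's strand, with both motifs in capitals. They were chosen as abundant genes of their roles in cycling cells (*Cdk1*, *Cdc20*, *Ube2c*, *Top2a*, *Mki67*, *Hmgb2*, *Tubb4b*), as the cyclin that activates CDK1 (*Ccnb1*), and as a member with no match at all (*Birc5*). Other abundant members are not shown, among them *Cenpf*, whose stretch held no CHR.
Cdk1 (chr10:69352913-69353062, minus strand): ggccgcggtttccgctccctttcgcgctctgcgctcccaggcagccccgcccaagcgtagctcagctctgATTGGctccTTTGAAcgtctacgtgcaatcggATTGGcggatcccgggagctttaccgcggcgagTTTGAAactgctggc
Cdc20 (chr4:118437344-118437493, minus strand): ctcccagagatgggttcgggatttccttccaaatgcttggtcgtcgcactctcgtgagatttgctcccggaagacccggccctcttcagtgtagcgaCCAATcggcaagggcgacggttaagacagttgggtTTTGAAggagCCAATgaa
Ube2c (chr2:164769779-164769928, plus strand): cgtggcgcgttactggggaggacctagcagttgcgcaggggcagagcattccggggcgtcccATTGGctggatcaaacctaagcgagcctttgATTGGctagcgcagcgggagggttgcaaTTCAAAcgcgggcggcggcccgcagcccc
Top2a (chr11:99024190-99024339, minus strand): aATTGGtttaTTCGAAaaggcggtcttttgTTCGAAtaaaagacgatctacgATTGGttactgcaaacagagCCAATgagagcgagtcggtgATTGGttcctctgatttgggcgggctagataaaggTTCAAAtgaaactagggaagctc
Mki67 (chr7:135716380-135716529, minus strand): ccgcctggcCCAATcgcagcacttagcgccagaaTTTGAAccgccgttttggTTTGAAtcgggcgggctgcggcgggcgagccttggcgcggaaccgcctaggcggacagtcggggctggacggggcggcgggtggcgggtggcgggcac
Hmgb2 (chr8:57511693-57511842, plus strand): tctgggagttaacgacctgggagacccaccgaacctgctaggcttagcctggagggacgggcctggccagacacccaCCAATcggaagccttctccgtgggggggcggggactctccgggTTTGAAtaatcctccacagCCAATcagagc
Tubb4b (chr2:25224703-25224852, minus strand): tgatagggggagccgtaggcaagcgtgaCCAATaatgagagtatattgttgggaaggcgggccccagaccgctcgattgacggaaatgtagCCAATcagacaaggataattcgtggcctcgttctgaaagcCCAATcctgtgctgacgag
Ccnb1 (chr13:100786487-100786636, minus strand): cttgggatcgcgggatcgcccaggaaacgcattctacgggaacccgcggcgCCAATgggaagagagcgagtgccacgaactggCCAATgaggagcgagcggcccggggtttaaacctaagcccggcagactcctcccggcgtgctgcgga
Birc5 (chr11:117849087-117849236, plus strand): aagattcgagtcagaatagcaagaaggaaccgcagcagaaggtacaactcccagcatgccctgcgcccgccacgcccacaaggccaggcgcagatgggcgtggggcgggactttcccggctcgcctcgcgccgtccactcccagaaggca
*Cdk1*, *Cdc20*, *Ube2c*, *Top2a*, *Mki67* and *Hmgb2* each held a CHR and a CCAAT box within these stretches. The CHR lay 15 bases from the start in *Cdk1* with another at 71, 18 bases from it in *Cdc20*, and 29 bases from it in *Ube2c*. *Top2a* had 3 in its stretch and *Mki67* had 2. *Tubb4b* held 3 CCAAT boxes and no CHR in its stretch, although a CHR lay further upstream, at 198 bases. *Ccnb1* held 2 CCAAT boxes, at 67 and 99 bases, but no CHR of these letters, and *Birc5* held neither. Over the matched members the CHR matches had a median position of -18.5 from the start, against -125 in all windows, and the CCAAT boxes -67.5 against -92. A CHR within 100 bases upstream stood in 15 of the 47 members (31.9%), against 7.40% of all genes of the table. The stretches shown thus hold an upstream CHR more often than the members as a whole. A match is a description of the sequence and does not show that a factor was bound; no binding was measured here.

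In alveolar cells, 20 of 956 WT cells (2.09%, exact 95% interval 1.28 to 3.21) and 144 of 8164 KO cells (1.76%, 1.49 to 2.07) were cycling. Most were AT2 cells, 18 of the 20 and 135 of the 144. AT2 cells were also most of all alveolar cells, 713 of the 956 in WT and 7048 of the 8164 in KO. Whether the AT2 share differed between cycling and other alveolar cells was not tested. In cycling cells the 53 genes together made up 5265 CPM (4879 to 5673) in WT and 7811 CPM (7664 to 7959) in KO, and in non-cycling cells 926 CPM (896 to 957) and 749 CPM (742 to 757). Cells with 1 or 2 gate genes lay between them, nearer to the non-cycling ones, at 1141 and 1313 CPM. The sum was thus higher in cycling cells by a log2 ratio of 2.51 (2.39 to 2.62) in WT and 3.38 (3.35 to 3.41) in KO.

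Member by member, 41 of the 44 genes with at least 10 UMIs were at least 2-fold higher in cycling WT alveolar cells, where 11.9% of all 12226 genes tested were. In KO it was 52 of 53, where 12.3% of 16332 were. The minimum counted both classes together, so a member scarce in non-cycling cells was tested only where cycling cells held it. The same minimum was used for all genes. Because the gate genes belong to the same cell cycle, the direction of these counts was set by the gate. The median log2 ratio of the members was 3.77 in WT and 5.99 in KO, beside -0.04 and 0.05 for all genes, and none was 2-fold lower in either library. The 9 genes left out in WT for too few UMIs were *Ccnb1*, *Cdc25c*, *Ttk*, *Aurka*, *Aurkb*, *Nek2*, *Ndc80*, *Dlgap5* and *Gtse1*, the last with no UMI in the 20 cells. The WT and KO medians thus cover unlike sets of members, and their gap is not a measure of the difference between libraries. Depth differed between these classes, with medians of 6257 (WT) and 9550 (KO) UMIs per cycling cell against 4819 and 6791 per non-cycling cell.

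**Figure D1:**
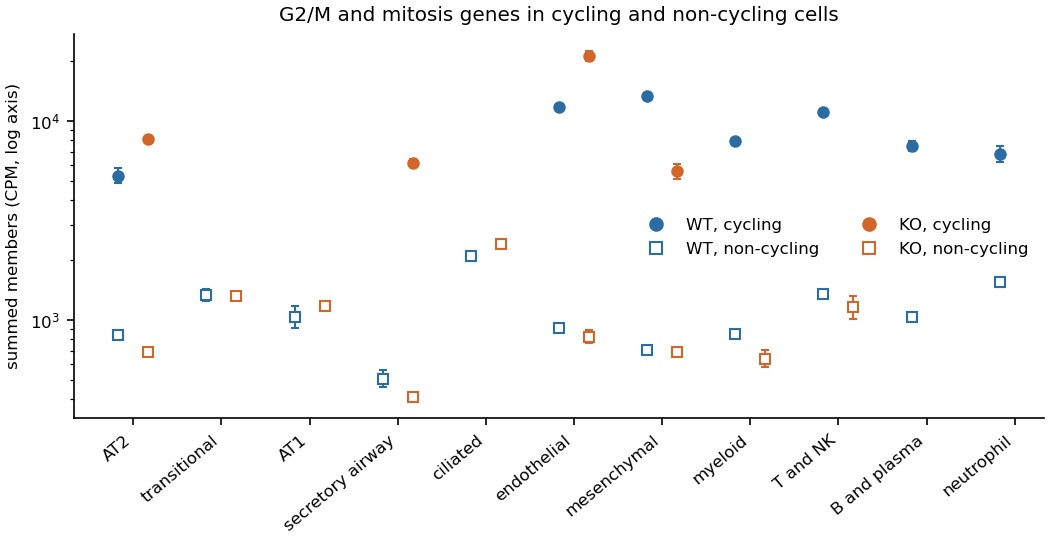
Summed CPM of the 53 genes (log axis) in cycling cells (circles, classes of at least 10 cells) and non-cycling cells (squares, at least 50 cells) of each lineage, WT in blue and KO in orange, with exact Poisson 95% intervals. Each cycling class sits above the non-cycling class of its lineage, the KO AT2 cells at 8132 against 689 CPM, and among non-cycling cells the ciliated cells are the highest, at 2087 and 2395 CPM.

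Of CDK1 and its partners, *Cdk1*, the kinase itself, stood at 160 CPM in cycling WT and 222 CPM in cycling KO alveolar cells, against 2.29 and 1.25 CPM in non-cycling cells. *Cks2* and *Cks1b*, small subunits that dock the kinase to its substrates, were nearly as high, *Cks2* at 137 and 217 CPM and *Cks1b* at 130 and 151 CPM. *Ccnb1*, cyclin B1, was scarcer, with 3 UMIs in WT (22.9 CPM) and 86 UMIs in KO (62.2 CPM), against 0.267 CPM in non-cycling KO cells. That made *Ccnb1* one of the steepest members in KO, at a log2 ratio of 7.86 (7.01 to 8.83). The other cyclin B, *Ccnb2*, stood at 61.0 and 57.9 CPM, and *Cdc25c*, the phosphatase that activates CDK1, was seen in 1 UMI in WT and 18 in KO.

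Of the spindle checkpoint and the ubiquitin ligases, *Ube2c*, the ubiquitin-conjugating enzyme of the anaphase-promoting complex, stood at 122 (WT) and 255 CPM (KO) cycling cells. *Cdc20*, the activator of that complex, stood at 168 and 198 CPM. *Cdca3*, which acts in the destruction of WEE1, stood at 99.2 and 107 CPM. In KO the log2 ratios of cycling over non-cycling cells were 7.06 for *Ube2c*, 4.98 for *Cdc20* and 6.42 for *Cdca3*, whereas *G2e3*, a ubiquitin ligase named for its expression in G2, had a log2 ratio of 2.51 from a non-cycling level of 13.6 CPM. Of the checkpoint kinases, *Ttk* had the highest log2 ratio of all members in KO, 8.78 (7.34 to 10.71), with 50 UMIs in cycling and 4 in non-cycling cells, and *Bub1* a lower one, 3.48 (3.12 to 3.83).

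In the Aurora group, *Birc5*, or survivin, stood at 137 (WT) and 195 CPM (KO), and *Cdca8*, or borealin, at 45.8 and 86.8 CPM; with Aurora B both form the chromosomal passenger complex, which corrects faulty attachments to the spindle. *Aurkb* itself had 1 UMI in the 20 WT cells (7.63 CPM) and 74 UMIs in the 144 KO cells (53.5 CPM), beside 6 UMIs in the 6827 non-cycling KO cells. Its log2 ratio in KO was 8.76 (7.57 to 10.25). *Aurka*, the kinase of the spindle poles, and *Nek2*, a kinase that splits the centrosomes, were also seen in 1 WT UMI each, with 38.3 and 31.8 CPM in KO.

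At the kinetochore, *Cenpf* stood at 107 (WT) and 271 CPM (KO), *Cenpe*, a kinesin that moves chromosomes to the spindle equator, at 53.4 and 90.4 CPM, and *Cenpa*, the histone of the centromere, at 122 and 86.8 CPM. *Cenpa* thus had the higher value in WT, but with overlapping intervals of 69.8 to 198 and 72.0 to 104 CPM. *Hjurp*, the chaperone that loads that histone, stood at 53.4 and 122 CPM in cycling cells but also at 21.4 and 13.9 CPM in non-cycling cells. *Ndc80* and *Nuf2*, subunits of the complex that grips microtubules, were seen at 51.4 and 34.7 CPM in cycling KO cells and at 0.247 and 0.288 CPM in non-cycling ones.

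Among genes of the spindle the pattern was uneven. *Tubb4b*, a beta-tubulin, was the most abundant at 397 (WT) and 478 CPM (KO), but it was high in non-cycling cells too, at 230 and 220 CPM, and so it was only 0.79 (0.36 to 1.19) and 1.12 (1.01 to 1.24) higher on the log2 scale. *Ckap5*, a microtubule polymerase, likewise had a high non-cycling level (39.2 and 40.4 CPM) and log2 ratios of 1.45 and 1.90. In contrast *Nusap1*, which bundles spindle microtubules, stood at 68.7 and 146 CPM against 1.27 and 0.925 CPM, and *Tpx2*, the activator of Aurora A, at 91.6 and 116 CPM against 4.33 and 1.34 CPM. *Kif11*, the kinesin that pushes the poles apart, reached a log2 ratio of 7.81 (7.17 to 8.52) in KO. *Psrc1*, a microtubule regulator, was the lowest of all members in both libraries, at 0.62 (-2.48 to 2.57) in WT from 2 cycling UMIs and 0.85 (-0.01 to 1.60) in KO.

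The 5 cytokinesis genes kept within a narrow band in KO, with log2 ratios from 5.18 for *Prc1* to 6.09 for *Anln*. *Prc1*, which bundles the microtubules of the midzone, stood at 107 (WT) and 257 CPM (KO). *Kif23*, a kinesin of the midzone, stood at 114 and 140 CPM, and *Ect2*, which switches on RhoA for the contractile ring, at 83.9 and 137 CPM.

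Genes of chromosome structure took the largest part of the members' UMIs in cycling alveolar cells, 32.03% in WT and 33.06% in KO, ahead of the spindle genes with 19.1% and 18.3%. *Hmgb2*, a DNA-bending protein, was the most abundant member at 710 (WT) and 954 CPM (KO). *Top2a*, the topoisomerase that untangles sister chromatids, stood at 275 and 462 CPM, and *Mki67*, which coats mitotic chromosomes, at 183 and 475 CPM. *Top2a* had 1.44 CPM in non-cycling KO cells and a log2 ratio of 8.33 (7.97 to 8.71), whereas *Hmgb2* had 111 CPM there and a ratio of 3.11 (3.02 to 3.19). *Cbx5*, a heterochromatin protein, stood at 160 and 234 CPM against 88.6 and 86.7 CPM, with log2 ratios of 0.85 in WT and 1.43 in KO.

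The 3 genes of the nuclear envelope and transport had moderate ratios in both libraries. *Tmpo*, a lamina-associated protein, stood at 305 (WT) and 344 CPM (KO), *Rangap1*, the GTPase activator of Ran, at 122 and 107 CPM, and *Lbr*, the lamin B receptor, at 107 and 101 CPM. Their log2 ratios went up to 2.33 in WT and 2.86 in KO, both for *Tmpo*, and *Lbr* was the lowest of the 3 in KO and in WT, where it had 1.53. Like *Tubb4b*, *Cbx5* and *Hmgb2*, these genes had a baseline in non-cycling cells, at 36.9 (WT) and 35.7 CPM (KO) for *Lbr*.

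In WT most cells were not epithelial, and the sum of the 53 genes was higher in cycling than in non-cycling cells of each of 6 other lineages. The log2 ratio was 3.68 (3.64 to 3.72) in the 134 cycling endothelial cells, 4.24 (4.16 to 4.31) in 29 mesenchymal cells, 3.23 (3.19 to 3.26) in 291 myeloid cells, 3.04 (2.97 to 3.11) in 63 T and NK cells, 2.86 (2.76 to 2.95) in 31 B and plasma cells, and 2.15 (1.99 to 2.31) in 10 neutrophils. In endothelial and in myeloid cells 53 of 53 members were at least 2-fold higher, where 10.4% and 8.11% of all genes were. In mesenchymal cells it was 50 of 50 (12.4% of all genes), in T and NK cells 46 of 48 (11.6%), in B and plasma cells 42 of 46 (15.6%) and in neutrophils 22 of 27 (16.7%). In KO, 38 of 38 were in endothelial cells (12.5% of all genes), 39 of 43 in mesenchymal cells (24.9%) and 49 of 51 in airway cells (13.8%), from 11, 11 and 26 cycling cells. A member outside these counts had fewer than 10 UMIs in that lineage. The minimum counted both classes together, so a member near 0 in non-cycling cells was tested only if cycling cells held it. For such a member the call was fixed by the filter. The Aurora group, for example, had 0 UMIs in 250 non-cycling and 52 in 11 cycling endothelial cells of KO. The gate met WT neutrophils differently, since 400 of 696 of them held 1 or 2 gate genes. The late-cycle gate genes stood at 308 CPM in non-cycling neutrophils, against 81.0 CPM in non-cycling myeloid and 54.2 CPM in non-cycling alveolar cells of WT. The neutrophil ratio is thus less comparable with the others.

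**Figure D2:**
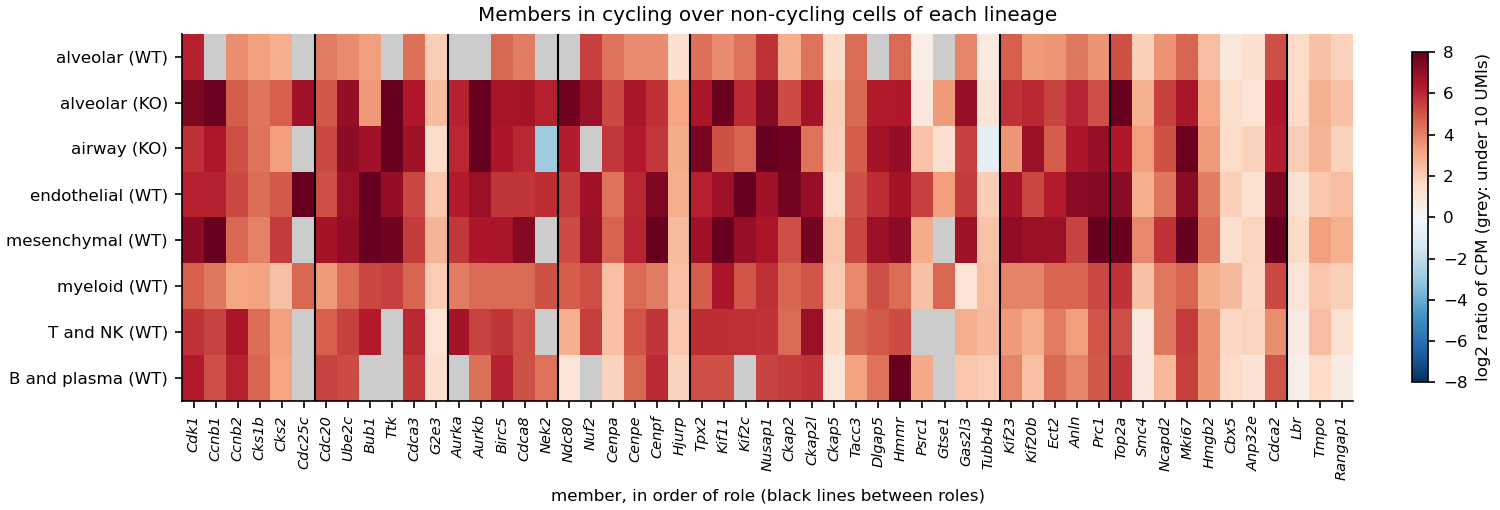
Log2 ratio of CPM in cycling over non-cycling cells (colour, red higher in cycling cells) for each of the 53 genes, in columns ordered by role with black lines between roles, and for 8 combinations of lineage and library in rows; grey marks under 10 UMIs. The pale columns are genes with a high baseline such as *Tubb4b*, *Ckap5*, *Anp32e*, *Cbx5* and *Lbr*, and the blue cells are *Nek2* (-2.84) and *Tubb4b* (-0.78) in KO airway cells.

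Over the 10 combinations of lineage and library above other than neutrophils, 43 of the 53 members were at least 2-fold higher in cycling cells wherever they were tested. The exceptions were *Anp32e*, *Cbx5*, *Ckap5*, *G2e3*, *Lbr*, *Nek2*, *Psrc1*, *Rangap1*, *Smc4* and *Tubb4b*. A member was tested in 3 (*Cdc25c*) to 10 of the combinations, because scarce members dropped out of the others. The share of all genes that met this rule was not counted. *Anp32e*, a chaperone of the histone H2A.Z, ranged only from 0.42 in KO mesenchymal to 1.85 in KO airway cells. *Lbr* ranged from 0.44 in B and plasma cells to 2.04 in KO endothelial cells. *Smc4*, a core subunit of condensin, ranged from 0.85 in T and NK cells to 3.82 in WT mesenchymal cells. *Psrc1*, low in alveolar cells, reached 5.45 in endothelial cells of WT. *Nek2* is the one member that was called in opposite directions, at -2.84 (-8.15 to -0.36) in KO airway cells, from 1 cycling and 319 non-cycling UMIs, and at 6.20 (5.42 to 7.03) in KO alveolar cells. The KO airway class differs in makeup between its cycling and non-cycling cells, as given below.

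Levels in single cells were matched by thinning each cell to 2000 UMIs. The 18 cycling WT alveolar cells of that depth held between 0 and 47 member UMIs with a median of 8.5, and the 135 KO cells between 0 and 51 with a median of 8. At least 10 different members were seen in 6 of the 18 WT cells (33.3%, exact 95% interval 13.3 to 59.0) and in 51 of the 135 KO cells (37.8%, 29.6 to 46.5), and in 0.298% and 0.0922% of non-cycling alveolar cells. Both libraries thus held cycling alveolar cells with many mitotic transcripts and cells with almost none, over nearly the same range. In WT the median was 12 in 103 endothelial, 13 in 254 myeloid, 16 in 53 T and NK and 24.5 in 20 mesenchymal cells, and 47, 128, 26 and 15 of these cells held at least 10 members. The highest cell was a KO endothelial cell with 137 member UMIs of 2000.

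**Figure D3:**
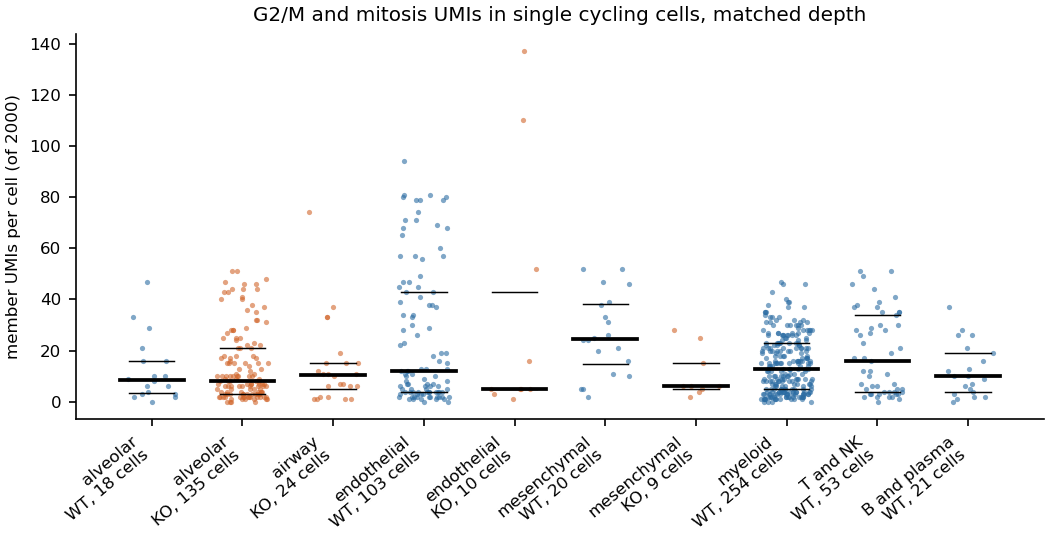
UMIs of the 53 genes in single cycling cells, each thinned to 2000 UMIs, by lineage and library (blue WT, orange KO); points are cells, spread sideways at random, thick lines are medians and thin lines quartiles. The alveolar medians are 8.5 in WT and 8 in KO, and mesenchymal WT cells have the highest median, 24.5.

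Between the libraries, the sum of the 53 genes in cycling alveolar cells at matched depth differed within counting error in the main setting. Some other settings moved it out of that range. The 18 WT cells held 225 member UMIs, or 6250 CPM (5460 to 7122), and the 135 KO cells 1903 UMIs, or 7048 CPM (6735 to 7372). The log2 ratio, KO over WT, was 0.17 with an exact conditional interval from -0.03 to 0.38. In AT2 cells alone, a setting added after the data were seen, 16 WT and 127 KO cells gave 0.22 (0.01 to 0.44), which left out 0. From all UMIs of the 20 and 144 alveolar cells the ratio was 0.57 (0.46 to 0.68). KO cells matched to WT cells in bins of UMIs also gave a ratio above the first interval. At matched depth, 1 of the 18 WT cells held 47 of their 225 member UMIs, and without that cell, a comparison chosen after the data were seen, the ratio was 0.43 (0.21 to 0.66), with an interval above 0. With the gate set on cells thinned to 2000 UMIs it was -0.39 (-0.54 to -0.25), with no overlap with the first interval. Relative to the G1/S genes of the gate the members stood at 2.47 in WT and 2.51 in KO, a log2 ratio of 0.02 (-0.35 to 0.39, a normal approximation). With all UMIs this log2 ratio was 0.37. The same G1/S genes helped to select the cells, so these values are a description only.

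Of the 44 members with at least 10 UMIs at matched depth, 10 were at least 2-fold higher in KO and 3 at least 2-fold lower, where 19.6% and 12.1% of all 4698 genes tested were. With all UMIs it was 18 higher and 0 lower of 53, where 16.4% and 10.1% of all genes were. The median of the members was 0.36 at matched depth and 0.71 with all UMIs, beside 0.00 and 0.01 for all genes. In the same cells the 20 endothelial markers summed to 267 CPM in WT, with 8 of them at 0, and 177 CPM in KO, with 4 at 0, and the 10 general immune markers to 588 and 252 CPM with none at 0. Other lists were higher in KO, the 28 markers of macrophages, monocytes and dendritic cells at 14200 and 20375 CPM (8 and 5 at 0) and the 8 of neutrophils at 1251 and 2379 CPM (5 and 0 at 0), while the 11 transitional markers stood at 4777 and 2425 CPM. The list of 28 holds *Lyz2* and *Cd74*, which are not limited to immune cells. That of 8 holds *Lcn2*, which the study uses to mark activated AT2 cells. How much of each sum these genes carry is not given, so immune RNA and RNA made by the alveolar cells themselves were not told apart. The part of these lists in the ratios was not tested.

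By role, 7 of the 8 sums were above 0 at matched depth, and 1 had an interval that left out 0. The kinetochore and centromere genes were higher in KO, at 333 (WT) and 600 CPM (KO), with a log2 ratio of 0.85 (0.00 to 1.83) that only just cleared it. In AT2 cells alone this ratio was 0.86 (-0.01 to 1.90), which included 0. The Aurora group stood at 194 and 378 CPM, a ratio of 0.96 (-0.14 to 2.31) from 7 WT UMIs, and the cytokinesis genes at 417 and 637 CPM, 0.61 (-0.15 to 1.48). The CDK1 group (0.23), the spindle genes (0.18), chromosome structure (0.09) and the checkpoint genes (0.07) had intervals that included 0. With all UMIs 7 of the 8 roles had intervals above 0, among them the CDK1 group at 0.48 (0.12 to 0.86), the spindle genes at 0.50 (0.25 to 0.77), chromosome structure at 0.61 (0.42 to 0.82) and the checkpoint genes at 0.59 (0.23 to 0.98). At matched depth the nuclear envelope genes alone lay below 0, at 833 (WT) and 556 CPM (KO), -0.58 (-1.16 to 0.03), and with all UMIs this ratio was 0.05 (-0.31 to 0.42).

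**Figure D4:**
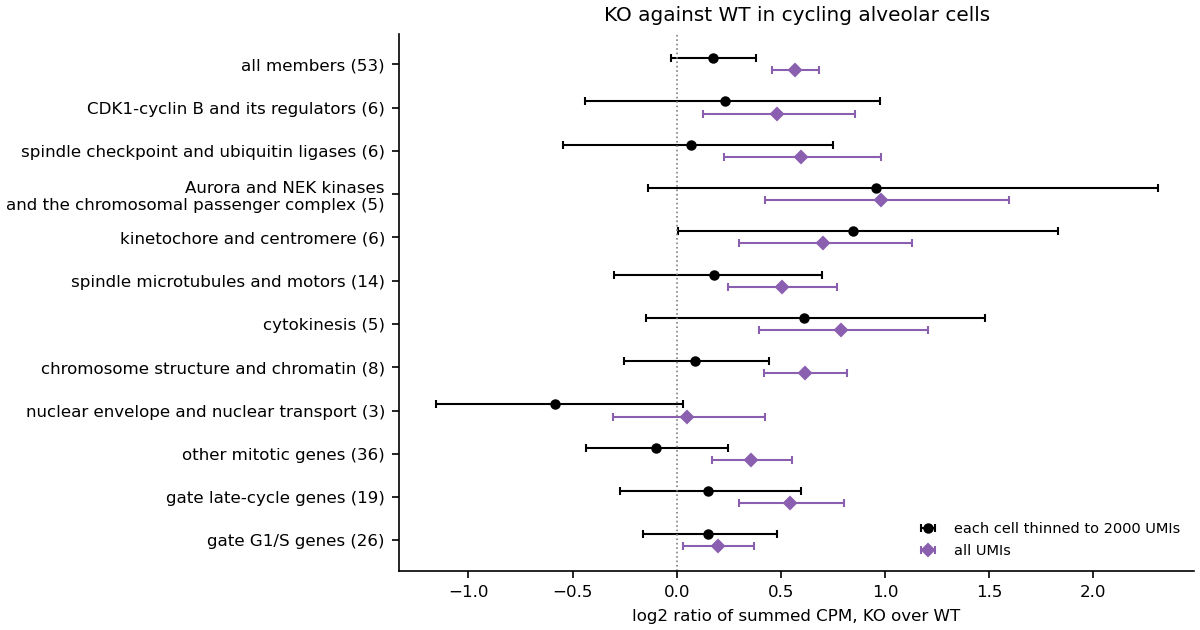
Log2 ratio of summed CPM, KO over WT, in cycling alveolar cells for all 53 genes, each role, 36 other mitotic genes and the gate genes (number of genes in brackets), from cells thinned to 2000 UMIs (black circles) and from all UMIs (purple diamonds), with exact conditional 95% intervals for counting error. The ratio of all members moves from 0.17 to 0.57 when all UMIs are used, and the nuclear envelope genes are the one role below 0 at matched depth.

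Single members rested on few WT UMIs. Among members with at least 20 UMIs, the lowest ratio was that of *Anp32e*, with 9 UMIs in WT (250 CPM) and 23 in KO (85.2 CPM), a log2 ratio of -1.55 (-2.72 to -0.26). It was -0.60 (-1.34 to 0.22) with all UMIs and 0.23 after a second random thinning, so its direction hung on which UMIs were drawn. *Tacc3*, a spindle protein bound to *Ckap5*, had 5 and 16 UMIs, -1.23 (-2.74 to 0.57), and *Cdca3* had 5 and 20 UMIs, -0.91 (-2.36 to 0.86). *Lbr* and *Rangap1* each had 7 and 27 UMIs, -0.96 (-2.19 to 0.48).

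At the other end, *Hmmr*, a spindle assembly factor, had no UMI in WT and 24 in KO, and *Ckap2l*, a protein of the spindle poles, none and 20. No direction was read for either, although the count of higher members above includes both. With all UMIs *Hmmr* had 7 and 158 (53.4 and 114 CPM) and *Ckap2l* 4 and 76 (30.5 and 55.0 CPM). *Hjurp* had 1 and 38 UMIs at matched depth, 2.34 (-0.22 to 7.68), and 1.19 (0.12 to 2.53) with all UMIs. *Mki67* had 7 UMIs in WT (194 CPM) and 108 in KO (400.0 CPM), 1.04 (-0.05 to 2.39), and 1.38 (0.79 to 2.03) with all UMIs, but -0.47 when cells were gated at 2000 UMIs. *Prc1* had 4 and 57 UMIs, 0.93 (-0.51 to 2.85), and 1.27 (0.50 to 2.15) with all UMIs.

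In non-cycling alveolar cells the members were somewhat lower in KO. At matched depth the sum was 883 CPM in 671 WT cells and 736 CPM in 6505 KO cells, a log2 ratio of -0.26 (-0.35 to -0.17), while the median of all genes was -0.20. Of 40 members tested, 16 were at least 2-fold lower and 1 at least 2-fold higher in KO, where 10.5% and 5.42% of all 13913 genes were, and their median was -0.81. The higher one was *Bub1*, with 3 UMIs in WT and 81 in KO, a ratio of 1.48 (-0.12 to 3.79). The lower ones were scarce genes such as *Cenpe* (6 and 7 UMIs, 4.47 and 0.538 CPM) and *Tpx2* (8 and 14 UMIs, 5.96 and 1.08 CPM), along with *Cks2* (27 and 84 UMIs, 20.1 and 6.46 CPM) and *Hjurp* (44 and 198 UMIs, 32.8 and 15.2 CPM). Of the most abundant members, *Tubb4b* stood at 213 and 219 CPM at matched depth and *Cbx5* at 91.7 and 86.9 CPM.

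The 10 WT and 64 KO cells with UMIs of at least 5 members were also left out, a choice made after the data were seen and by the members' own UMIs, so that the WT sum, with the larger share of such cells, had to drop more. The ratio was then -0.16 (-0.25 to -0.07), while the median of all genes was -0.20. Of 38 members 10 were 2-fold lower and their median was -0.36, and the share over all genes was not counted for these cells. The same non-cycling cells held 47.9 CPM of *Ptprc*, or CD45, in WT and 3.08 CPM in KO, and 50.4 and 4.42 CPM of *Pecam1*, or CD31. The 20 endothelial markers summed to 783 (WT) and 144 CPM (KO) and the 10 general immune markers to 566 and 221 CPM, with no marker of either list at 0. The 28 markers of macrophages, monocytes and dendritic cells were higher in KO, at 19241 and 23893 CPM, and the 8 of neutrophils were at 1552 and 1538 CPM. The list of 28 holds *Lyz2* and *Cd74* and that of 8 holds *Lcn2*, and how much of each sum they carry is not given. Immune RNA and RNA of the alveolar cells were thus not told apart here either. The part of any of these markers in the difference was not tested.

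In non-cycling cells the levels of some members differed between lineages. In non-cycling alveolar cells the 5 highest were *Tubb4b* (230 CPM), *Hmgb2* (129), *Cbx5* (88.6), *Tmpo* (60.6) and *Anp32e* (52.7) in WT and *Tubb4b* (220), *Hmgb2* (111), *Cbx5* (86.7), *Tmpo* (47.4) and *Ckap5* (40.4) in KO. Members were then set against the median of the other lineages with at least 50 non-cycling cells, 11 lineages in WT and 9 in KO, and those over 4 times that median with at least 20 UMIs are named. *Nek2*, *Tubb4b*, *Psrc1* and *Smc4* met this in the same lineages of both libraries. The minimum of 20 UMIs was asked of the high lineage alone, so lineages with many UMIs passed it at low CPM. The share of all genes over this limit was not counted, so the list does not set the members apart from other genes.

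Ciliated airway cells, which have left the cell cycle, held 1343 CPM (1257 to 1434) of *Tubb4b* in WT and 1705 CPM (1673 to 1738) in KO, where the median of the other lineages was 81.8 and 120 CPM; the protein is a tubulin of the axoneme as well as of the spindle. They also held 70.2 CPM (51.5 to 93.3) of *Nek2* in WT and 51.4 CPM (45.9 to 57.3) in KO. In secretory airway cells *Nek2* had no UMI in either library, which with a floor of 3 UMIs allows up to 3.68 (WT) and 0.474 CPM (KO), and the median of the other lineages was 0.144 CPM in WT and 0 in KO. Ciliated cells made up most of the non-cycling airway class of KO, 853 of 1448 cells, but 1 of its 26 cycling cells; this is the class in which *Nek2* and *Tubb4b* had ratios below 0. *Tubb4b* also stood at 547 and 603 CPM in transitional and at 336 and 567 CPM in AT1 cells.

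Transitional alveolar cells held 44.6 CPM (29.6 to 64.4) of *Psrc1* in WT and 35.1 CPM (29.0 to 42.1) in KO, above AT2 cells with 2.95 (1.35 to 5.59) and 3.47 CPM (2.94 to 4.07). In KO they also stood out for *Ckap2*, at 17.4 CPM (13.2 to 22.5) against 1.06 CPM in AT2 cells, for *Gtse1*, at 8.70 CPM (5.83 to 12.5), and for *Tpx2*, at 6.90 CPM. *Ckap2* in WT transitional cells was at a like level, 19.1 CPM (9.87 to 33.4), but on 12 UMIs, under the minimum, while *Gtse1* had 1 UMI there. *Psrc1* and *Gtse1* are known as targets of p53 besides their part in mitosis, and the transitional gate counts *Cdkn1a*, another p53 target, among its 11 markers. Any part of p53 in these levels was not tested.

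*Smc4* was highest in T and NK cells, at 276 CPM (259 to 294) in WT and 199 CPM (142 to 271) in KO, against medians of 43.4 and 36.0 CPM. The other patterns were seen in 1 library. In WT, where immune cells were many, non-cycling neutrophils held 660 CPM (603 to 720) of *Hmgb2*, 155 CPM of *Cks2*, 171 CPM of *Lbr* and 45.1 CPM of *Kif23*, although the KO library had too few neutrophils to compare. Myeloid cells of WT held 29.1 CPM (26.5 to 31.8) of *Gas2l3*, a linker of actin and microtubules, with 10.4 CPM (4.17 to 21.4) in KO, and were over the limit at lower levels for *Ccnb2* (9.12 CPM), *Bub1* (1.36 CPM) and *Kif2c* (1.23 CPM). B and plasma cells of WT held 46.4 CPM of *Cenpa*, 18.7 CPM of *Ndc80* and 12.96 CPM of *Kif20b*, and T and NK cells 43.9 CPM of *Cenpa* and 10.0 CPM of *Ndc80*.

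In KO the AT2 cells held 6.37 CPM of *Bub1*, 7.54 CPM of *Prc1* and 1.45 CPM of *Hmmr* outside the cycling gate. The WT values were 4.91 CPM (2.75 to 8.10) for *Bub1* and 10.5 CPM (7.17 to 14.8) for *Prc1*, and secretory airway cells had 3 UMIs of *Prc1* and none of *Bub1* in WT, within counting error of AT2 cells. In KO they had 0.474 CPM (0.098 to 1.39) of *Bub1* and 1.26 CPM (0.545 to 2.49) of *Prc1*, below the AT2 intervals of 5.64 to 7.16 and 6.75 to 8.40 CPM. Ciliated cells of KO were over the limit for *Kif23* (27.0 CPM), *Top2a* (8.85 CPM), *Ckap2l* (6.12 CPM), *Kif11* (5.63 CPM) and *Cdk1* (4.99 CPM), and ciliated cells of WT held 25.4 CPM (14.8 to 40.6) of *Kif23*. Mesenchymal cells of KO were over it for *Ckap2* (3.81 CPM) and *Nusap1* (3.05 CPM).

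**Figure D5:**
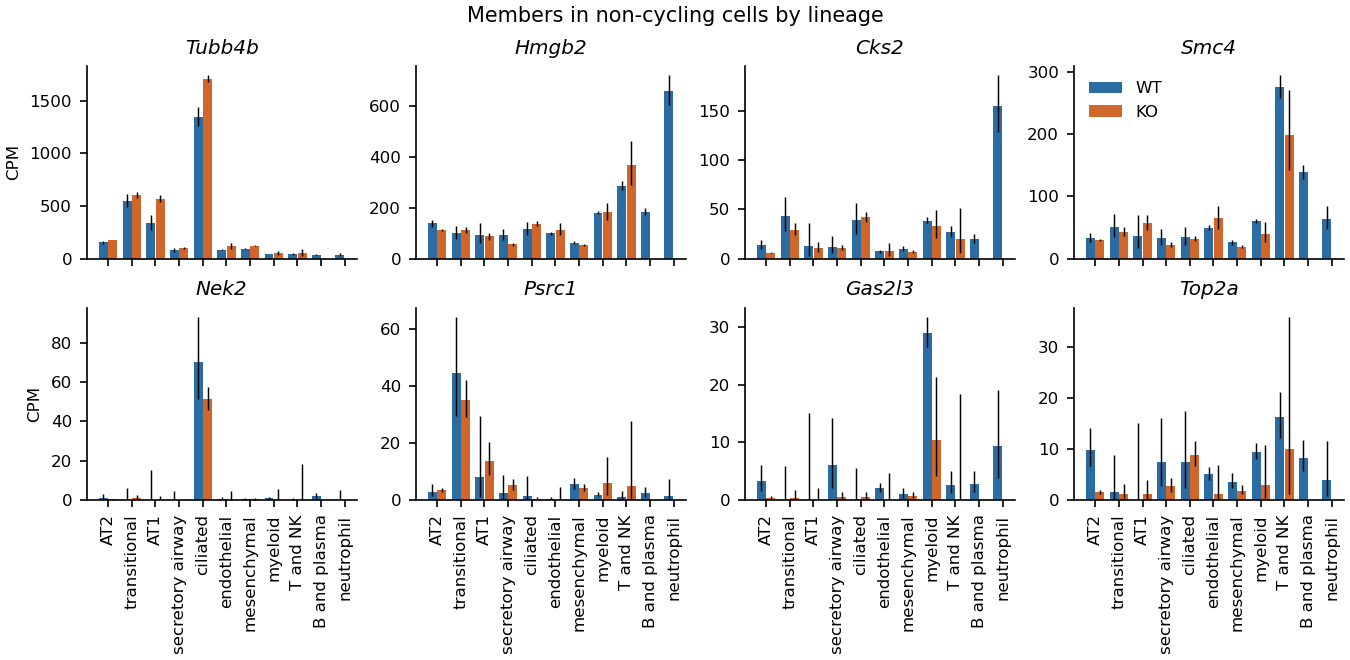
CPM of 8 members in non-cycling cells of each lineage with at least 50 such cells, WT in blue and KO in orange, with exact Poisson 95% intervals as black lines; each panel has its own axis from 0. *Tubb4b* and *Nek2* are highest in ciliated, *Psrc1* in transitional and *Smc4* in T and NK cells in both libraries, and *Hmgb2* and *Cks2* are highest in WT neutrophils.

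Other genes of the same pathway gave a background for these values. Of 36 other mitotic genes, 24 had at least 10 UMIs in WT alveolar cells and 20 of them were at least 2-fold higher in cycling cells. In KO it was 34 of 36. The medians were 3.66 over the 24 in WT and 5.88 over the 36 in KO, which are unlike sets. Of all genes 11.9% in WT and 12.3% in KO were that much higher. The most abundant was *Ube2s*, a ubiquitin-conjugating enzyme that extends chains for the anaphase-promoting complex, at 298 and 379 CPM in cycling WT and KO cells. *Smc2*, the partner of *Smc4* in condensin, followed in KO (174 CPM, and 91.6 CPM in WT), with *Jpt1* (158 and 214 CPM), *Bub3* (101 CPM in KO) and *Aspm* (83.9 CPM in KO), and in WT *Mad2l1* stood at 122 CPM and *Iqgap3* at 76.3 CPM. Between the libraries the 36 genes were at -0.10 (-0.43 to 0.25) at matched depth. Of 28 tested, 7 were at least 2-fold higher in KO and 5 lower, where 19.6% and 12.1% of all genes were. With all UMIs the 36 genes were at 0.36 (0.17 to 0.55), so their ratio also moved up with depth. Of these 36, 7 were then at least 2-fold higher in KO and 1 lower, where 16.4% and 10.1% of all genes were. Of 13 genes of DREAM, MuvB, FOXM1 and B-MYB, 4 of 12 tested were at least 2-fold higher in cycling WT and 7 of 13 in cycling KO alveolar cells, beside the same 11.9% and 12.3% of all genes. They ranged from *Lin37* at -1.09 to *Mybl2*, which encodes B-MYB, at 4.42 in WT and from *E2f5* at -0.17 to *Foxm1* at 5.62 in KO. In their promoters the other mitotic genes held a CHR in 65.5% and the G1/S gate genes in 14.3%.

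Members with and without a CHR of the letters searched (TTTGAA or TTCGAA) in the promoter window did not separate by level. The split cannot speak for a CHR of other letters. In KO alveolar cells the 36 with a CHR had a median log2 ratio of cycling over non-cycling of 5.62, from 0.85 to 8.78, and the 11 without one 6.20, from 1.43 to 7.86. The same held in endothelial cells of WT, at 5.66 and 5.74, and in myeloid cells, at 4.21 and 4.53. Their non-cycling levels in KO alveolar cells had medians of 2.20 and 1.34 CPM, over ranges of 0.0822 to 220 CPM and 0.267 to 86.7 CPM.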

How the data were processed

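Single-cell RNA-seq of bleomycin-injured lung was analysed from 1 WT and 1 KO matrix of UMI counts per gene and cell, deposited as made by the authors with Cell Ranger (3.1.0 in the submitters' notes, 5.0.0 in the matrix header) on GRCm38; the counts are not normalized, and no column was pooled. Cells were kept with more than 200 and fewer than 5000 genes and under 20% mitochondrial UMIs. Scrublet, in scanpy 1.11.5, marked 0 cells with its automatic threshold, so no doublet was removed; leaving out the cells with the highest 5% of scores was an alternative. No authors' cell annotation was used here, and the lineages were rebuilt from marker lists by a scoring rule set after the files were seen, so names may differ from the study's.

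Each cell was thinned at random to 1000 UMIs for the gates and to 2000 UMIs for the comparison between libraries, and cells below that depth were left out. Ratios were log2, with exact Poisson or exact conditional 95% intervals for counting error, 0.5 UMIs added where a sum was 0, and a minimum of 10 UMIs over both classes. The interval of the ratio to the G1/S genes was instead a normal approximation. A member was called at 2-fold. There was no test, because cells are not replicates. Members named with values were, per role, 2 to 4 with the highest CPM in cycling alveolar cells, the 5 highest and 5 lowest ratios between libraries with at least 20 UMIs, and those over 4 times the other lineages' median outside the cycle; further members were named after their values were seen. Members and lists were chosen with earlier results of these data known. Python 3.11.15, numpy 2.4.6, scipy 1.17.1, pandas 2.3.3 and edgeR 4.0.16 (R 4.3.3, TMM factors only) were used, and the code was tested on simulated data. Alternatives varied the cell filter, doublets, gate genes and depth, thinning, UMI minimum, denominator and scaling.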

Additional observations from a re-analysis of the deposited data

Results flagged for a closer look

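The members also had UMIs in cells that no comparison above used. Barcodes with 5000 or more genes, left out by the filter, held the members at 3465 CPM in WT (99 barcodes, 23 of them cycling, 23.2%) and 2742 CPM in KO (303 barcodes, 22 cycling, 7.26%). Cells that passed the filter but no lineage gate held them at 1668 CPM in WT (3527 cells, 159 cycling, 4.51%) and 1077 CPM in KO (995 cells, 17 cycling, 1.71%). Both kinds of cell lay above the non-cycling and below the cycling alveolar cells of their library. Each pools cycling with other cells, so a place between the 2 classes could come from the mixture alone.

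*Nek2* was the 1 member at least 2-fold lower in cycling airway cells of KO. Its log2 ratio of cycling over non-cycling cells was -2.84 (-8.15 to -0.36), from 3.45 and 24.8 CPM, while it was above 0 in alveolar cells of KO. *Tubb4b* was also below 0 there, at -0.78. All 319 non-cycling *Nek2* UMIs of the airway class were in ciliated cells, which made up 853 of its 1448 non-cycling but 1 of its 26 cycling cells. The difference between the lineages was not tested, and the *Nek2* value rests on 1 UMI in cycling cells.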

How the results depend on the processing

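No paired analysis was possible because each genotype had 1 library. With 1 library each, no library could be left out, and the 18 to 20 cycling WT alveolar cells limit every ratio between libraries. The gate set the shares and sums most. With at least 2 gate genes, 4.18% of WT and 3.76% of KO alveolar cells were cycling and the log2 ratios of cycling over non-cycling cells were 1.87 and 2.88. With at least 4 the KO share was 1.09% and the ratios 2.73 and 3.59. With G1/S genes alone the KO share was 1.09%, the ratios 2.10 and 2.71, and KO over WT in cycling cells was -0.14. With late-cycle genes alone the shares were 0.523% and 0.429% and the ratios 3.64 and 4.07. With the gate at 500 UMIs the shares were 0.732% and 0.808%, the ratios 3.37 and 3.605, and KO over WT -0.067. With the gate at 2000 UMIs the shares were 3.90% and 3.63%, the ratios 2.80 and 3.06, KO over WT -0.39, the ratio to G1/S genes -0.72, and *Mki67* turned from 1.04 to -0.47. The cause of these changes was not tested.

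A second random thinning gave ratios of 2.83 and 3.42 and turned *Anp32e* from -1.55 to 0.23. Values from cells thinned to 1000 UMIs gave 2.72 and 3.25, with 10 of 15 members tested 2-fold higher in cycling WT cells, KO over WT 0.41 and, over G1/S genes, 0.59. A mitochondrial limit of 10% gave 2.31 and 3.33. In KO, no upper limit on genes gave 3.43 and a denominator without mitochondrial, ribosomal protein and surfactant genes 3.32. KO over WT was 0.57 with all UMIs, 0.44 with KO cells matched to WT cells in bins of UMIs, 0.66 with TMM factors, which shift every gene by 0.49, and 0.43 without the WT cell with the most member UMIs (chosen after the data were seen). Under the other 9 settings it lay between 0.02 and 0.29. Of the 13 members 2-fold apart between libraries, 10 higher and 3 lower, a minimum of 20 UMIs gave 6 in all and TMM factors 20, 19 higher and 1 lower. The 10 higher include *Hmmr* and *Ckap2l*, with no WT UMI. With G1/S genes alone the split was 6 higher and 7 lower, with the gate at 2000 UMIs 7 and 8, at 1000 UMIs per cell 13 and 0, and in bins 9 and 0. For the counts under these changed settings, and for the 10 of 15 above, the share over all genes was not counted. They therefore do not show how the members stood against all genes, and the TMM split holds the shift of 0.49 given to every gene.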
